A study of Mus musculus with 16 samples.

Results

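A set of 10 genes that mark the endothelium, the inner lining of blood vessels, were followed in short-read RNA-Seq libraries of 8 mouse tissues. The members were the adhesion genes Pecam1 and Cdh5, the receptor tyrosine kinase genes Kdr, Flt1, Tek and Tie1, the transcription factor gene Sox17, and Kank3, Plvap and Vwf, which is 10 of the 55385 genes in the count table. They were matched by gene identifier with the version dropped, and all 10 were found and passed 1 CPM, the unit of counts scaled to a common library total, in every library. Their list was chosen on earlier results of these same libraries for fasting against fed, so the fasting values of the members are given as a description without p-values. Male C57BL/6 mice, acquired at 12 weeks of age, either ate standard chow freely (fed) or went without food for 24 h (fasting), with 3 mice in each group. Lung, heart, spleen, kidney, liver, muscle and both the white and the brown adipose tissue of the 3 mice of a group were pooled, so each tissue and treatment gave 1 library, 16 in all, and no genotype or drug separated the groups. The spread between mice was therefore not measured, and any difference between a fed and a fasting library compares 2 pools.

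Endothelial cells form the wall of capillaries and line larger vessels, and they are known to differ between organs, with a closed wall in muscle and a perforated one in liver, kidney and spleen. They take up vascular endothelial growth factors (VEGF) through the receptors encoded by Kdr (VEGFR2) and Flt1 (VEGFR1, which binds VEGF tightly and signals weakly) and angiopoietins through the receptor encoded by Tek, for which Tie1 encodes a co-receptor. Cdh5 and Pecam1 encode junction proteins, Sox17 a factor of arterial endothelium, Plvap the protein of the diaphragms that span endothelial fenestrae and caveolae, and Vwf the von Willebrand factor that captures platelets. In RNA from whole tissue, fewer endothelial cells and less RNA per endothelial cell cannot be told apart.

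Library totals lay between 14245178 and 36069968 counts, and the smallest count of any member was 55, for Sox17 in the fed liver. All members were detected in all tissues, and their summed level was 4460 CPM in the fed and 4604 CPM in the fasting lung, 1654 and 1475 CPM in white adipose, 1141 and 1252 CPM in brown adipose and 1234 and 1183 CPM in heart. It was lower in spleen (675 and 788 CPM), kidney (598 and 683 CPM), muscle (390 and 369 CPM) and liver (298 and 268 CPM). Intervals given with fold changes are 95% intervals that cover counting error only.

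To ask where the members were most abundant, each tissue was compared with the mean of the other 7 in one edgeR quasi-likelihood fit over 23580 genes, with the fed and the fasting library as the 2 libraries of a tissue. This contrast was not used to choose the members. All 10 members were higher in lung, against 30.6% of all genes tested, and the log2 difference ran from 1.40 (SE 0.10) for Flt1 to 3.56 (SE 0.19) for Vwf, with adjusted p of 3.19e-05 or lower for each. In CPM, both lung libraries lay above every library of every other tissue for each member. Vwf reached 643 CPM in the fed and 886 CPM in the fasting lung, against 260 CPM in its next highest library, the fed white adipose. In liver 8 of 10 members were lower, against 24.8% of all genes tested, and none was higher. Kank3 had the lowest value there (log2 difference -2.31, SE 0.14, adjusted p = 8.59e-08). Kdr (0.08, SE 0.20) and Plvap (0.26, SE 0.13) did not pass in liver. With libraries scaled by total counts alone both turned and were called lower (-0.67 and -0.49), as all 10 members then were, against 49.4% of all genes.

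**Figure D1:**
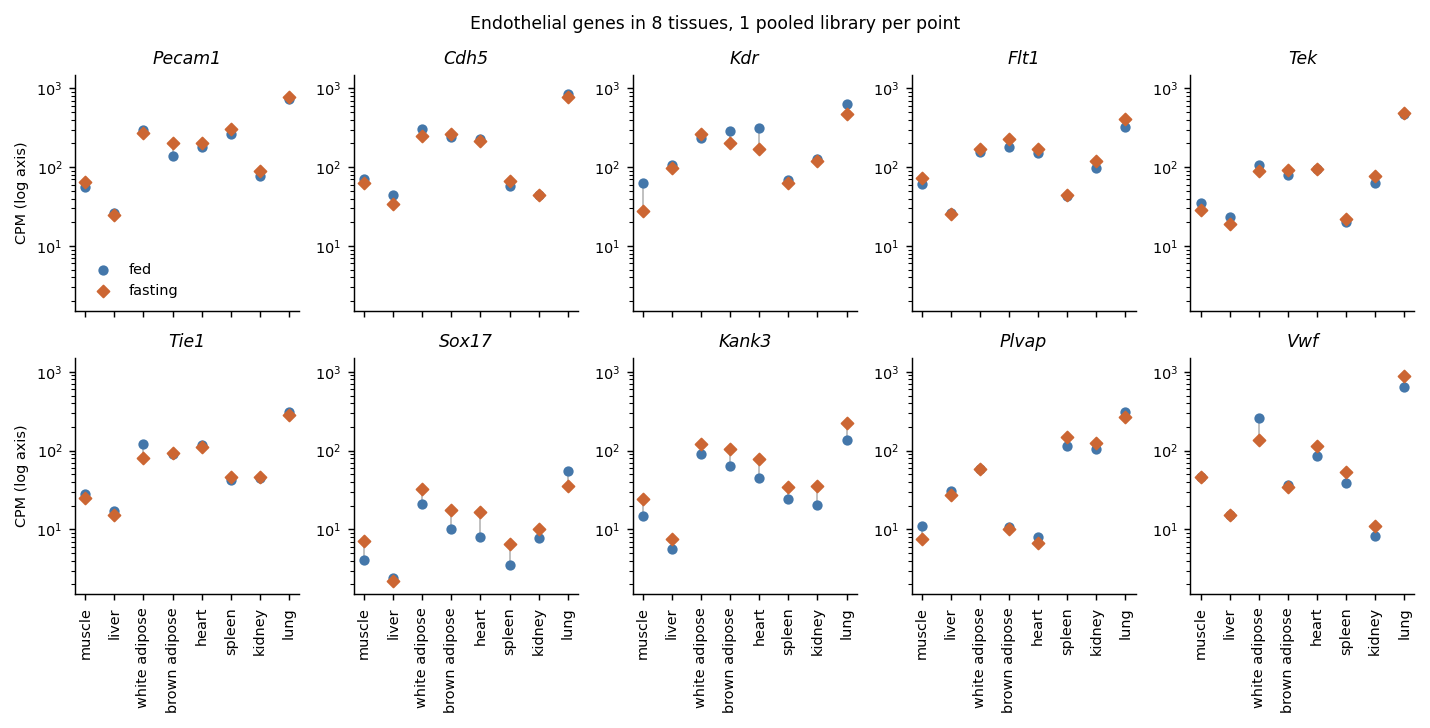
Level of each member in CPM on a log axis (vertical) in the fed (circles) and fasting (diamonds) library of each tissue (horizontal), 1 pooled library per point. The lung libraries sit highest in all 10 panels, and Plvap has its next highest levels in spleen and kidney, where Cdh5 is low.

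In muscle, 4 members were lower than the mean of the other tissues (Pecam1, Kdr, Tie1 and Plvap), against 25% of all genes tested, and none was higher by edgeR's adjusted p, against 25.9%, while 2 were higher at an unadjusted p under 0.05 and 2 by DESeq2's Wald test. That count depended on scaling, since 9 members were lower in muscle when libraries were scaled by total counts alone, against 55.8% of all genes. In heart 8 members were higher, against 22.7% of all genes tested, and 1, Plvap, was lower (-2.56, SE 0.17, adjusted p = 3.71e-07), against 19.8%. Spleen had 8 members lower and 2 higher, against 29.6% and 35.1% of all genes tested. The lowest there was Tek (-2.59, SE 0.16, adjusted p = 7.87e-08), and the higher members were Pecam1 (0.35, SE 0.12, adjusted p = 0.0287) and Plvap (1.31, SE 0.12, adjusted p = 2.25e-06). Pecam1 lost this call without the treatment term (0.35, edgeR adjusted p = 0.0620), and Vwf was no longer called lower in spleen with total counts alone (-0.45 against -1.15). PECAM1 is also carried by leukocytes and platelets, and the summed level of 12 leukocyte markers was 6763 CPM in the fed and 6409 CPM in the fasting spleen against at most 4866 CPM in any other library. The part of these cells in the spleen level of Pecam1 was not tested.

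White adipose had 5 members higher, against 24.5% of all genes tested, and none lower. They were Vwf (1.53, SE 0.22), Sox17 (1.08, SE 0.23), Kank3 (1.05, SE 0.10), Cdh5 (0.75, SE 0.12) and Pecam1 (0.59, SE 0.12). With total counts alone all 10 were higher there, against 44.8% of all genes. Brown adipose had 6 members higher, against 21.7%, and 2 lower, against 17.9%. Kank3 (1.06, SE 0.10), Cdh5 (1.02, SE 0.11) and Flt1 (1.01, SE 0.10) were the highest there, and Plvap (-2.23, SE 0.17) and Vwf (-0.92, SE 0.26) were the lower ones. Tek (0.37, SE 0.12) lost its call in brown adipose without a filter on low counts. Kidney had 5 members lower, against 19.3%, and Plvap higher, against 27.7%. The call of Kank3 in kidney (-0.78, SE 0.12) was lost without the treatment term.

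Plvap followed its own order of tissues. Across the 16 libraries its log2(CPM + 1) correlated at r = 0.309 with the mean of the other 9 members, whereas the other members lay between 0.804 (Kdr) and 0.972 (Tie1). These points are 2 libraries from each of 8 tissues, so the correlations describe tissues and carry no p. Plvap was higher in kidney by 1.72 (SE 0.12, adjusted p = 3.06e-07), where Cdh5 was lower by -1.88 (SE 0.15) and Vwf by -3.11 (SE 0.32, adjusted p = 9.05e-06) on the log2 scale. Per kilobase of transcript, Plvap exceeded Pecam1 by 4.28 times in the fed and 4.38 times in the fasting kidney and by 3.65 and 3.44 times in liver, and it amounted to 0.137 and 0.106 times Pecam1 in heart. Among the 10 members, Plvap had the highest level per kilobase in 6 libraries and Cdh5 in the other 10.

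**Figure D2:**
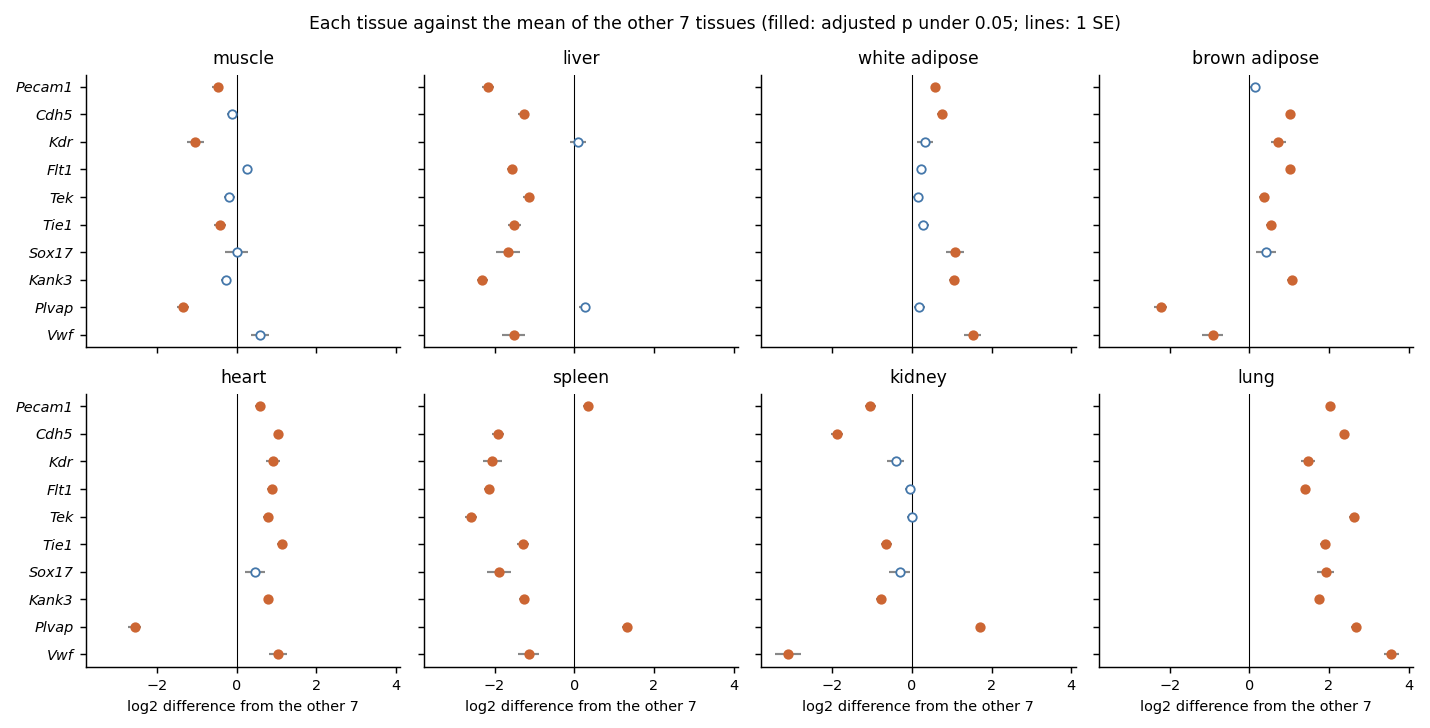
Log2 difference (horizontal) of each member between a tissue and the mean of the other 7 tissues, 1 panel per tissue, with lines of 1 SE and filled points where the edgeR adjusted p was under 0.05. All 10 points are filled and right of 0 in lung, while in liver 8 of 10 are filled and left of 0.

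The order of tissues had steps that the spread of the libraries did not separate. For Kdr, lung came first (625 CPM fed, 471 CPM fasting), and the libraries of white adipose, brown adipose and heart overlapped one another between 170 and 316 CPM. Kidney, liver, spleen and muscle followed without overlap between neighbours, down to 28.1 CPM in the fasting muscle. For Vwf, white adipose and heart came after lung without overlap, muscle and spleen overlapped each other, and kidney was last (8.24 CPM fed, 10.9 CPM fasting).

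The genes whose tissue pattern was most like that of the members were sought among 17652 genes with a mean of at least 1 CPM, by the Pearson correlation of log2(CPM + 1) with the members' mean scaled level over the 16 libraries. The 10 closest were Ccm2l (r = 0.987), Cracr2b (0.986), Tmem44 (0.983), Rasip1 (0.983), Arap3 (0.982), Esam (0.980), Tead2 (0.980), She (0.979), Notch4 (0.978) and Arhgap31 (0.977). Esam encodes an endothelial adhesion molecule, Notch4 an endothelial Notch receptor and Rasip1 a Ras-interacting protein of vessel lumen formation. Ranked by Spearman correlation, only 3 of these 10 stayed among the first 10, so the exact names depend on the measure.

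Fasting was then compared with feeding within each tissue. A gene was called when its log2 fold change, taken as (CPM + 0.01) fasting over (CPM + 0.01) fed, exceeded 0.5 in size with a two-sided Fisher's exact p under 0.01, the thresholds of the study. Of 80 member and tissue pairs, 12 (15%) were called higher and 7 (8.75%) lower in fasting. Summed over the tissues, 7.93% of the pairs of all genes were called higher and 9.94% lower. With TMM scaling, edgeR's trimmed mean method, 14 member pairs were higher and 5 lower. The calls of all genes moved with TMM as well, as given below. The shares called among all genes with 1 CPM or more in 1 of the 2 libraries are given beside each count, and nothing is read from the comparison because the members were chosen on this contrast. In muscle 2 members were higher (background 7.8%) and 2 lower (16.4%), in brown adipose 3 were higher (8.68%) and 1 lower (12.2%), and in heart 2 were higher (7.01%) and 1 lower (9.65%). In white adipose 1 was higher (19.8%) and 2 lower (9.23%), and in lung 1 was higher (4.23%) and 1 lower (10.1%). In spleen 2 were higher (3.62%) and none lower (2.33%), in kidney 1 was higher (4.48%) and none lower (6.23%), and in liver none was called higher (7.34%) or lower (15.8%). The balance of all calls moved with scaling: 1068 genes were higher and 2241 lower in muscle by library totals against 1369 and 1753 by TMM, and the same pairs were 1034 and 2231 against 1461 and 1507 in liver, 3469 and 1614 against 2898 and 2342 in white adipose, and 743 and 1773 against 985 and 1384 in lung. TMM moved the median log2 fold change of all genes from -0.13 to 0.00 in liver and from 0.07 to -0.05 in white adipose, and by less than 0.1 in the other 6 tissues.

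**Figure D3:**
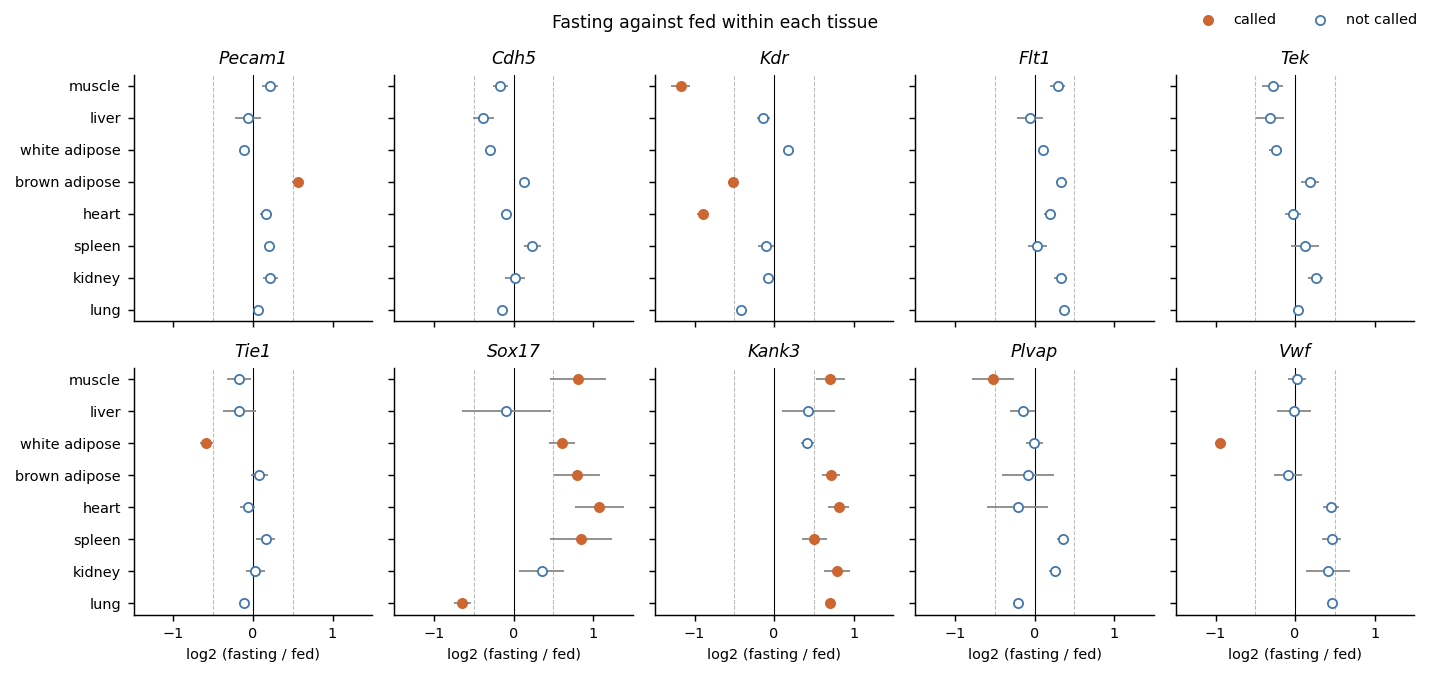
Log2 fold change of fasting against fed (horizontal) for each member in each tissue, with 95% counting intervals, dashed lines at 0.5 in either direction, and filled points for called pairs. Kank3 lies right of 0 in all 8 tissues, and Kdr lies left of 0 in 7.

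The pair of VEGF receptors mostly had fasting values of opposite sign, although neither was called across tissues and the difference between them was not tested. Kdr (chr5:75932827-75978458, minus strand) was lower in fasting in 7 of 8 tissues, by library totals and by TMM, with white adipose the exception under both. Flt1 (chr5:147561604-147726011, minus strand) was higher in 7 of 8 under both, the exception being liver by library totals and white adipose by TMM. Kdr stood at 63.3 CPM in the fed and 28.1 CPM in the fasting muscle, at 316 and 170 CPM in heart, and at 290 and 202 CPM in brown adipose. These 3 falls were called, with log2 fold changes of -1.17 (-1.29 to -1.05), -0.90 (-0.97 to -0.83) and -0.52 (-0.58 to -0.45), although the brown adipose value became -0.50 with TMM and was then not called. Lung followed without a call (625 and 471 CPM, -0.41). In white adipose Kdr was higher in fasting without a call (232 and 262 CPM, 0.18), a value that was 0.06 with TMM. Kidney (127 and 121 CPM), liver (106 and 96.4 CPM) and spleen (68.2 and 63.5 CPM) differed by 0.14 or less in size.

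Flt1 was called in no tissue. Its largest difference was in lung (321 CPM fed, 413 CPM fasting, 0.37), followed by brown adipose (181 and 228 CPM, 0.34), kidney (96.9 and 121 CPM, 0.33) and muscle (60.6 and 74.0 CPM, 0.29). Heart (151 and 172 CPM), white adipose (157 and 170 CPM) and spleen (43.5 and 44.5 CPM) had smaller ones, and liver was at 26.6 and 25.5 CPM. With TMM the liver value turned to 0.07 and the white adipose value to -0.01. Per kilobase, Kdr exceeded Flt1 in 15 of 16 libraries, and the ratio was lower in fasting in 7 of 8 tissues. It went from 3.13 to 1.47 in heart, from 2.91 to 1.70 in lung, from 2.40 to 1.33 in brown adipose and from 1.56 to 0.568 in muscle, the single library where Flt1 was the higher of the receptors. In white adipose it was 2.2002 fed and 2.3043 fasting, and liver had the highest ratios, 5.97 and 5.65.

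**Figure D4:**
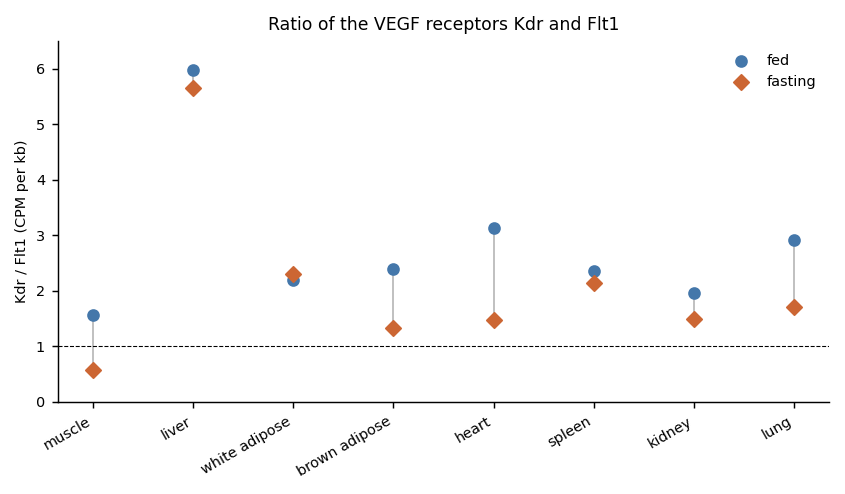
Ratio of Kdr to Flt1, each in CPM per kilobase (vertical, linear), in the fed (circles) and fasting (diamonds) library of each tissue, with a dashed line at equal levels. The fasting point is below the fed point in every tissue except white adipose, and it falls below 1 in muscle.

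Promoter sequence from RefSeq (GRCm38.p6) was at hand for 5 of 10 members: Kdr, Flt1, Tek, Tie1 and Kank3. The 250 bases before the start of Kdr, Flt1 and Kank3 are shown because each had values of one sign in at least 7 of 8 tissues. The sign was below 0 for Kdr and above 0 for Flt1 and Kank3, whether or not the values were called. They are read 5′ to 3′ on the gene's own strand, from chr5:75978456-75978705 (minus), chr5:147726012-147726261 (minus) and chr17:33810273-33810522 (plus). The letters GGAAG and their reverse complement CTTCC are in capitals. They are 1 form of the core bound by ETS factors, a family that is central to endothelial gene control. Other forms of that core were not marked or counted.
Kdr: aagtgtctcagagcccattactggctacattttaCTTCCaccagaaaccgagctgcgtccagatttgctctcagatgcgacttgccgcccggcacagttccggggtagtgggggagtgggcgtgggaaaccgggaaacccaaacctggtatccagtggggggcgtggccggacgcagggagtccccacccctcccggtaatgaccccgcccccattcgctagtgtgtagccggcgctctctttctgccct
Flt1: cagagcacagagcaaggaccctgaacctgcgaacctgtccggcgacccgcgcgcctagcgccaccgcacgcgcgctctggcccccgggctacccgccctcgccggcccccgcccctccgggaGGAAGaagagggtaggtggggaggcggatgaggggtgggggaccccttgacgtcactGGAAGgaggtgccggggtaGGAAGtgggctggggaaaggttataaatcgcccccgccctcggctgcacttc
Kank3: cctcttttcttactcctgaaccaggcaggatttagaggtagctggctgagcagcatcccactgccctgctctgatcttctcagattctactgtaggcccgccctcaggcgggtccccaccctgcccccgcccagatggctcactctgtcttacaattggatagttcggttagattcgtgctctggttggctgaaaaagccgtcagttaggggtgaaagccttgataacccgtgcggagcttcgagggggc
The letters GGAAG occurred on either strand 1 time before Kdr, 3 times before Flt1, 6 times before Tie1 and not in this window before Kank3 or Tek, and 64.1% of 32851 promoters held them in the same window. The GC box letters GGGCGG occurred 2 times before Kdr, 3 times before Flt1, 2 times before Kank3 and not in this window before Tek or Tie1. Of all promoters 32.7% had a match. Flt1 alone of the 5 held the letters TATAAA (12.4% of all promoters), starting at position -31 from the RefSeq start. The GC content of the windows was 61.6% for Kdr, 70.4% for Flt1 and 56.4% for Kank3.

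Kank3 (chr17:33810519-33822918, plus strand), whose product contains ankyrin repeats and belongs to a family of proteins that regulate the actin cytoskeleton, was higher in fasting in all 8 tissues. It went from 14.7 to 23.98 CPM in muscle, from 63.3 to 104 CPM in brown adipose and from 45.0 to 79.1 CPM in heart. It went from 24.5 to 34.8 CPM in spleen, from 20.5 to 35.5 CPM in kidney and from 137 to 222 CPM in lung. These 6 differences were called, with log2 fold changes from 0.51 in spleen to 0.81 in heart. The spleen value was 0.49, and not called, with a pseudocount of 1 CPM. White adipose (90.04 and 120.3 CPM, 0.42) and liver (5.601 and 7.532 CPM, 0.43) were not called, although the liver value was 0.56 and called with TMM.

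Kank3 shares 88 of its 3260 exon bases with Rps28, a ribosomal protein gene on the opposite strand, and the strand setting of the counting is not given in the sources used here. Rps28 ranged from 50.2 to 283 CPM and its counts over all libraries came to 153% of those of Kank3. Its log2 fold change was 0.42 in white adipose, 0.30 in liver, 0.22 in heart, 0.19 in spleen, 0.17 in brown adipose, -0.01 in lung, -0.10 in kidney and -0.11 in muscle. The part of Rps28 reads in the Kank3 values was not tested.

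Sox17 (chr1:4490931-4497354, minus strand) was called higher in 5 tissues and lower in lung. It went from 4.03 to 7.05 CPM in muscle, from 7.90 to 16.7 CPM in heart and from 3.58 to 6.43 CPM in spleen. It went from 10.1 to 17.5 CPM in brown adipose and from 21.0 to 32.1 CPM in white adipose. The log2 fold changes were 1.08 (0.78 to 1.39) in heart, 0.84 in spleen, 0.81 in muscle, 0.80 in brown adipose and 0.61 in white adipose, the last of which was 0.49 and not called with TMM. Lung, its highest tissue, went from 55.1 to 35.2 CPM (-0.65, -0.75 to -0.54). Kidney (7.80 and 9.97 CPM, 0.35) and liver (2.39 and 2.24 CPM) were not called. The lung libraries also differed in markers of other cells. Of 12 leukocyte markers 8 were called lower in fasting, against 10.1% of all genes there, and none higher, against 4.23%. Their summed level was 4866 CPM fed and 4189 CPM fasting, with none at 0 in both libraries. The part of these cells in the Sox17 value was not tested. Sox17 shares 804 of its 4772 exon bases with the opposite-strand gene Gm37587, whose counts over all libraries came to 4.42% of those of Sox17.

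Vwf (chr6:125546774-125686679, plus strand) was called only in white adipose, where it went from 260 to 135 CPM (-0.95, -1.01 to -0.89). It was higher without a call in heart (84.6 and 116 CPM, 0.46), spleen (38.5 and 52.9 CPM, 0.46), lung (643 and 886 CPM, 0.46) and kidney (8.24 and 10.9 CPM, 0.41), and the heart (0.51) and lung (0.54) values passed the threshold with TMM. Muscle (45.8 and 46.4 CPM), brown adipose (36.4 and 34.2 CPM) and liver (15.2 and 15.1 CPM) differed by 0.09 or less in size. Megakaryocytes and platelets also carry Vwf, and the 11 markers of these cells summed to 47.6 CPM in the fed and 45.8 CPM in the fasting white adipose. None was at 0 in both libraries. Of the 4 markers at 1 CPM or more, 1 was called higher and 1 lower, against 19.8% and 9.23% of all genes there. In white adipose, Tie1 (chr4:118471191-118490061, minus strand) was the other member called lower (122 and 81.4 CPM, -0.59). The 12 markers of mural cells, the pericytes and smooth muscle around vessels, summed there to 1605 CPM fed and 1164 CPM fasting, with none at 0. Of these markers 3 were called lower, against 9.23% of all genes there, and 1 higher, against 19.8%. Much of the fall in this sum came from Rgs5, a pericyte gene, which went from 502 to 210 CPM (-1.26). The part of mural cells in the white adipose values was not tested.

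Of the remaining members, Pecam1 and Plvap were each called in 1 tissue and Cdh5 and Tek in none. Pecam1 (chr11:106654217-106750628, minus strand) was called in brown adipose only (138 and 204 CPM, 0.56) and lay between -0.11 and 0.22 elsewhere. Plvap (chr8:71497765-71511752, minus strand) was called lower in muscle (11.01 and 7.661 CPM, -0.52), a value that was -0.44 and not called with TMM, and went from 115 to 147 CPM in spleen (0.35). Cdh5 (chr8:104101625-104144511, plus strand) ranged from -0.38 in liver to 0.24 in spleen and Tek (chr4:94739289-94874976, plus strand) from -0.31 in liver to 0.26 in kidney. The 10 members did not move as a block: in spleen and kidney 9 of 10 were above 0, in liver 9 of 10 were below 0, and in muscle, heart and lung 5 were above and 5 below. In liver 4 of those 9 turned above 0 with TMM.

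When all tissues were fitted together with the tissue as a block, 1 of 10 members, Kank3, was called higher (background 1.03% of 23580 genes) and none lower (0.84%). As within tissues, nothing is read from this count, because the members were chosen on this contrast. The log2 fold change of Kank3 was 0.68 (SE 0.08), and it ran from 0.65 to 0.73 as each tissue was left out. Kdr was at -0.35 (SE 0.13), Flt1 at 0.24 (SE 0.07), Sox17 at 0.51 (SE 0.17) and Pecam1 at 0.20 (SE 0.09). Vwf (0.14, SE 0.16), Tie1 (-0.06, SE 0.09), Cdh5 (-0.05, SE 0.08), Plvap (-0.02, SE 0.09) and Tek (0.01, SE 0.08) lay within 1 SE of 0. Leaving out 1 tissue at a time moved Kdr between -0.41 and -0.25, Flt1 between 0.21 and 0.28, Sox17 between 0.42 (without heart) and 0.68 (without lung) and Pecam1 between 0.14 and 0.26. Vwf moved from 0.08 without lung to 0.31 without white adipose. Without white adipose Tie1 turned to 0.03 and Cdh5 to 0.01, without muscle Plvap turned to 0.03, and Tek lay between -0.04 and 0.06. These errors measure how tissues differ, not how mice differ, because the tissues come from the same 2 pools of mice.

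The ligands and other genes of the VEGF and angiopoietin pathway were taken as a list of 20 genes. Over the 8 tissues 145 gene and tissue pairs reached 1 CPM, of which 9 (6.21%) were called higher and 41 (28.3%) lower in fasting. Summed over the 8 tissues in the same way, 7.93% of the pairs of all genes were called higher and 9.94% lower, a background that holds for each list described here. The lists, like the members, were chosen with earlier results of these libraries known, so these shares describe the lists and support nothing further. The same limit holds for the calls and adjusted p-values of list genes across tissues, which are given below as a description. With TMM the list's calls were 11 higher and 34 lower. The median of the list lay between -0.54 (muscle) and 0.05 (spleen), where the median of all genes was -0.14 and -0.02. Epas1 (HIF-2alpha), the most abundant of the list at a mean of 519 CPM, was at 0.19 (SE 0.09) across tissues and did not pass. In muscle 8 of the 18 genes at 1 CPM or more fell, against 16.4% of all genes there, and 1, Vegfd, rose (2.24 to 9.60 CPM, 2.09), against 7.8%. In heart 8 of 19 fell, against 9.65%, and none rose, against 7.01%. In white adipose 8 of 20 fell, against 9.23%, and 4 rose, a share near the 19.8% of all genes called higher there.

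Vegfa, the main ligand of KDR, fell from 184 to 64.7 CPM in muscle (-1.51) and from 363 to 225 CPM in heart (-0.69). It rose from 246 to 525 CPM in white adipose (1.09). Brown adipose (489 and 558 CPM, 0.19), lung (825 and 607 CPM, -0.44), spleen (71.6 and 52.9 CPM, -0.44), kidney (240 and 192 CPM, -0.32) and liver (158 and 129 CPM, -0.30) were not called. Vegfb, which binds FLT1 and not KDR, fell in white adipose (69.3 to 33.0 CPM, -1.07) and liver (8.075 to 3.005 CPM, -1.42). Pgf, the placental growth factor and another ligand of FLT1, rose in white adipose (5.195 to 12.18 CPM, 1.23) and lung (3.73 to 6.21 CPM, 0.74). Vegfc, a ligand of the lymphatic receptor FLT4, fell in muscle (2.24 to 1.29 CPM, -0.79). The co-receptor gene Nrp1 fell in muscle (58.8 to 36.4 CPM, -0.69), heart (278 to 157 CPM, -0.82) and liver (-0.59), and Nrp2 fell in heart (79.75 to 46.34 CPM, -0.78) and white adipose (-0.52). The muscle call of Vegfc and the liver call of Nrp1 were lost with TMM.

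Angpt1, the activating ligand of the TEK receptor made largely by mural cells, fell in white adipose (48.8 to 15.1 CPM, -1.69), muscle (11.3 to 5.59 CPM, -1.02), brown adipose (75.3 to 43.3 CPM, -0.80) and kidney (30.2 to 20.3 CPM, -0.57). It rose in spleen (16.4 to 26.7 CPM, 0.70). Angpt2, a context-dependent antagonist, fell in white adipose (15.8 to 5.83 CPM, -1.44), muscle (2.66 to 1.42 CPM, -0.90) and kidney (28.6 to 19.8 CPM, -0.53), the last of which was lost with TMM. Tek itself was called in none of these tissues.

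Among the genes of this list with 10 CPM or more in 1 of the 2 libraries, the largest falls were those of Apln in heart and of Aplnr and Dll4 in white adipose, genes known from vessel sprouting. Aplnr, which encodes the apelin receptor, fell in 7 tissues, among them white adipose (72.1 to 11.6 CPM, -2.64), heart (74.6 to 18.4 CPM, -2.02), muscle (10.01 to 3.168 CPM, -1.66), kidney (11.5 to 4.97 CPM, -1.21) and lung (112 to 54.2 CPM, -1.04). Its ligand gene Apln fell in heart (24.3 to 2.36 CPM, -3.36), lung (58.6 to 21.6 CPM, -1.44) and white adipose (13.7 to 6.23 CPM, -1.14), and Dll4, the Notch ligand of tip and arterial cells, fell in white adipose (42.55 to 10.28 CPM, -2.05). Across tissues, edgeR's fit called Aplnr (-1.496, SE 0.22, adjusted p = 0.0125, lower in 7 of 8 tissues) and Apln (-1.46, SE 0.30, adjusted p = 0.0361, lower in 8 of 8). They were the only 2 of the 20 genes that passed, against 0.84% of all 23580 genes called lower and 1.03% higher. Those shares hold for every list in this fit. Aplnr kept its call as each tissue was left out. Apln lost it without brown adipose, liver, lung or muscle, with log2 fold changes between -1.69 and -1.16 over all 8 such fits. Calls over all genes also fell in most of these fits. The full fit had 243 higher and 198 lower. There were 57 and 24 without brown adipose, 81 and 44 without heart, 93 and 39 without lung and 95 and 40 without muscle. There were 156 and 102 without kidney, 203 and 136 without liver, 246 and 227 without spleen and 274 and 183 without white adipose. These counts stand beside every call named below as lost when a tissue was left out.

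**Figure D5:**
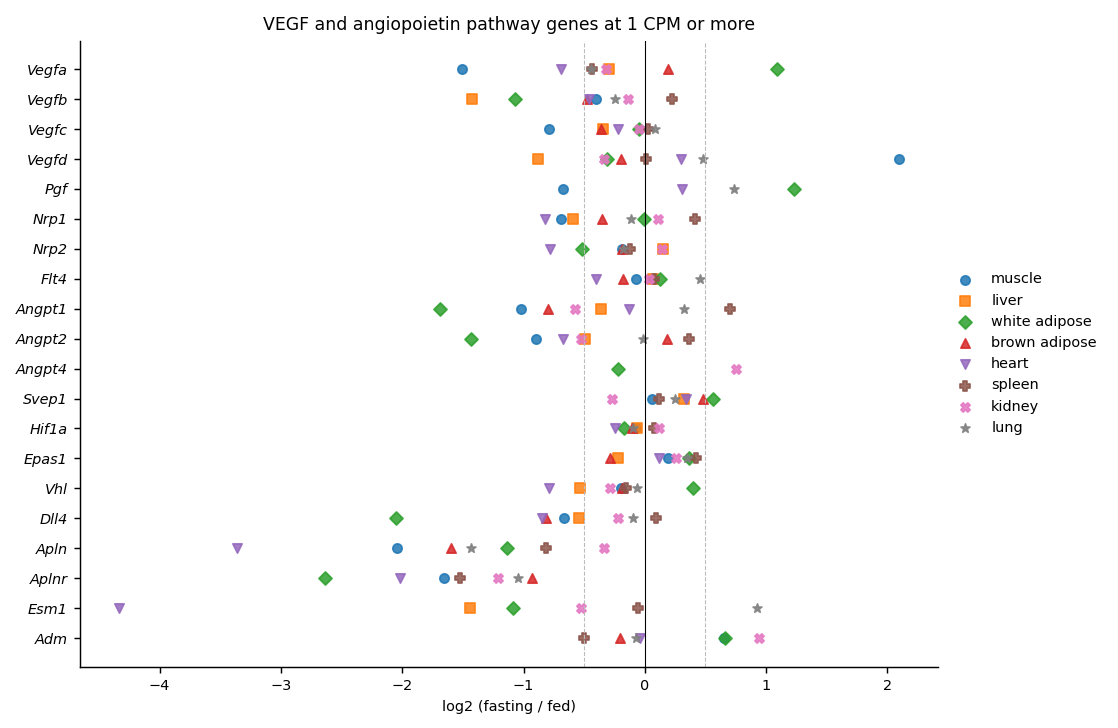
Log2 fold change of fasting against fed (horizontal) for the 20 genes of the VEGF and angiopoietin pathway (vertical), 1 symbol per tissue, for genes with 1 CPM or more in 1 of the 2 libraries, with dashed lines at 0.5 in either direction. Aplnr and Apln lie left of 0 in every tissue drawn, and Vegfa is far left in muscle and far right in white adipose.

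A second list held 39 other genes of endothelium in general, all measurable in all tissues. Of 312 gene and tissue pairs 19 (6.09%) were called higher and 44 (14.1%) lower, against 7.93% and 9.94% of the pairs of all genes. The lower calls numbered 9 in muscle, 8 in white adipose, 8 in lung and 7 in heart, against 16.4%, 9.23%, 10.1% and 9.65% of all genes there. With TMM they numbered 8, 12, 6 and 7. The lower calls of all genes moved as well, from 2241 to 1753 in muscle and from 1614 to 2342 in white adipose. In lung they went from 1773 to 1384 and in heart from 1460 to 1208. Its most abundant genes, Adgrf5 and Ptprb, had means of 569 and 497 CPM over the 16 libraries. Of the 39, 6 passed in edgeR's fit across tissues, 3 higher and 3 lower, against 1.03% and 0.84% of all 23580 genes. Adgrf5 (0.50, SE 0.08, adjusted p = 0.0195, higher in 8 of 8 tissues), an adhesion receptor, Gpihbp1 (0.54, SE 0.09, adjusted p = 0.0200, 7 of 8), the capillary protein that holds lipoprotein lipase, and Adgrl4 (0.41, SE 0.08, adjusted p = 0.0374, 7 of 8) rose. Bcl6b (-1.17, SE 0.21, adjusted p = 0.0269, lower in 8 of 8), a transcriptional repressor, Ecscr (-0.39, SE 0.08, adjusted p = 0.0358, 8 of 8) and Cd34 (-0.43, SE 0.09, adjusted p = 0.0459, 8 of 8) fell. Bcl6b went from 12.9 to 2.81 CPM in muscle (-2.196), from 46.6 to 13.9 CPM in white adipose (-1.74), from 56.0 to 17.0 CPM in lung (-1.72) and from 43.0 to 16.1 CPM in heart (-1.41). Other large calls were Myct1 in white adipose (-1.22), S1pr1 in liver (81.5 to 25.2 CPM, -1.69) and Clec14a in brown adipose (12.6 to 25.3 CPM, 1.01). Each of these 6 calls was lost when at least 1 tissue was left out: Adgrf5 without brown adipose, heart or muscle, Gpihbp1 without brown adipose, lung or muscle, and Bcl6b without brown adipose, heart, lung or muscle. In those fits the calls over all genes fell as well, as given above. Adgrl4 kept it only without liver or white adipose, Cd34 only without liver or spleen, and Ecscr only without liver. The values stayed between 0.46 and 0.54 for Adgrf5, 0.47 and 0.61 for Gpihbp1, 0.35 and 0.47 for Adgrl4, -1.31 and -1.06 for Bcl6b, -0.42 and -0.37 for Ecscr, and -0.48 and -0.39 for Cd34.

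Among 14 genes of Notch signalling and arterial endothelium, 14 of 105 measurable pairs (13.3%) were higher and 17 (16.2%) lower. Nrarp, a target and feedback inhibitor of Notch, fell in brown adipose (18.2 to 4.91 CPM, -1.89), heart (17.3 to 4.78 CPM, -1.85) and white adipose (38.0 to 15.4 CPM, -1.31) and across tissues (-1.02, SE 0.22, adjusted p = 0.0422, lower in 8 of 8). Sema3g, a secreted semaphorin of arterial endothelium, rose across tissues (0.42, SE 0.08, adjusted p = 0.0321, higher in 8 of 8). Unc5b, a netrin receptor gene, fell in heart (35.8 to 15.0 CPM, -1.26) and brown adipose (18.2 to 7.65 CPM, -1.25), and Jag2, a Notch ligand gene, fell in muscle (30.2 to 15.0 CPM, -1.01). Notch1, the most abundant of the list at a mean of 149 CPM, was at 0.12 (SE 0.09) across tissues. Nrarp kept its call only without spleen and Sema3g only without kidney, liver or white adipose, with values of -1.15 to -0.90 and 0.37 to 0.47.

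The 8 genes of venous and activated endothelium had 8 of 53 pairs higher (15.1%) and 6 lower (11.3%), and 8 sinusoidal genes had 6 of 43 higher (13.95%) and 5 lower (11.6%). For 12 genes of caveolae and lipid uptake 12 of 88 pairs were higher (13.6%) and 19 lower (21.6%), and for 8 lung capillary genes 15 of 60 were higher (25%) and 9 lower (15%). Of the 2 most abundant genes of each list, Gpihbp1 of the lung capillary list passed across tissues, as given above. The others had across-tissue log2 fold changes of 0.43 (SE 0.14) for Vcam1, 0.15 (SE 0.08) for Icam1, 0.04 (SE 0.13) for Mrc1, -0.07 (SE 0.09) for Stab1, 0.13 (SE 0.20) for Lpl, 0.40 (SE 0.11) for Cd36 and 0.14 (SE 0.09) for Ptprb, and none of these passed. In the lung capillary list Gpihbp1 and Tbx3 (0.51, SE 0.11, adjusted p = 0.0433) passed upward and Aplnr downward. Tbx3 lost its call in 7 of 8 fits that left out a tissue, all but that without spleen, with values of 0.44 to 0.58. The 6 lymphatic genes had 8 of 39 pairs higher (20.5%) and 1 lower (2.56%), and Lyve1, a receptor gene of lymphatic and some sinusoidal endothelium, rose from 204 to 585 CPM in lung (1.52). Neither Lyve1 (0.45, SE 0.21) nor Prox1 (0.05, SE 0.16), the lymphatic transcription factor gene, passed across tissues.

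The markers of other cells in the tissue, lists chosen in the same way, are given as a description beside the same 7.93% and 9.94% of all pairs. Of 10 fibroblast genes 3 of 78 pairs (3.85%) were higher and 24 (30.8%) lower, and the collagen genes Col3a1 (-1.11, SE 0.08, adjusted p = 0.000859, lower in 8 of 8) and Col1a1 (-0.64, SE 0.11, adjusted p = 0.0223, lower in 7 of 8) fell across tissues while Dcn rose (0.34, SE 0.07, adjusted p = 0.0304, higher in 8 of 8). Col1a1 and Dcn each lost the call without brown adipose, heart, kidney, lung or muscle, with values over all such fits of -0.75 to -0.60 and 0.33 to 0.36. Mural cell genes had 4 of 91 pairs higher (4.40%) and 16 lower (17.6%), leukocyte genes none of 73 higher and 15 lower (20.5%), and megakaryocyte genes 5 of 39 higher (12.8%) and 2 lower (5.13%). The 8 erythroid genes all rose in spleen, against 3.62% of all genes called higher there, and their summed level went from 3870 to 9408 CPM. In the other tissues they had 1 pair higher and 2 lower. Of the 2 most abundant genes of each of the last 4 lists, none passed across tissues: Des (-0.09, SE 0.14) and Rgs5 (0.03, SE 0.19) of mural cells, Lyz2 (-0.17, SE 0.07) and Ptprc (-0.38, SE 0.10) of leukocytes, Itgb3 (0.31, SE 0.12) and Ppbp (0.30, SE 0.14) of megakaryocytes, and the globin genes Hbb-bs (0.22, SE 0.15) and Hba-a1 (0.19, SE 0.15). The part of these cells in the members' values was not tested.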

How the data were processed

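The authors deposited raw counts per gene and library, with gene length and coordinates as other values. Per the study's methods and processing notes, strand-specific paired-end reads of 100 bp were trimmed with fastp 0.23.2, checked with FastQC 0.11.8, mapped with HISAT2 2.2.1.0 (genome GRCm38) and summed per gene by featureCounts (Subread 2.0) on GENCODE vM24. The strand setting, and whether reads or pairs were counted, are not given in the sources used here. None of the 37 mitochondrial genes had a count.

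The members and the gene lists were chosen with earlier results of these data known. Symbols were taken from the reference tables by identifier (55144 of 55385 genes). CPM used library totals, of which 3 counts equal 0.0832 to 0.211 CPM. Within a tissue, Fisher's exact test compared the 2 libraries. Across tissues, and for each tissue against the mean of the other 7, edgeR 4.0.16 in R 4.3.3 ran a quasi-likelihood model of tissue plus treatment (filterByExpr, TMM, 7 residual degrees of freedom), and p-values were adjusted by Benjamini-Hochberg with a threshold of 0.05. Both were run on simulated data. For the Fisher rule the counts held counting error only, and it called between 48 and 87 unchanged genes per tissue. For the edgeR fit the counts also held spread between libraries, and it called 5. The 2 runs cannot be set against each other, because their spread and p thresholds differed. The Fisher run leaves out the spread between mice.

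Genes named were the 10 members, the 2 most abundant of each list, list genes called with a log2 fold change above 1 and 10 CPM or more where their list is described gene by gene (the VEGF, general endothelial, Notch and lymphatic lists, the other lists being given as counts), the 10 genes most like the members, and 8 ligand and co-receptor genes. Vegfd and the list genes passing the across-tissue test were also named, some after their values were seen. Alternatives were DESeq2 1.42.0, other scaling, filters, pseudocounts and leaving out tissues.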

Additional observations from a re-analysis of the deposited data

Results flagged for a closer look

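Sox17 was called in both directions, with its highest log2 fold change in heart (1.08) and its lowest in lung (-0.65), each from 1 fed and 1 fasting library. Vegfa was highest in white adipose (1.09) and lowest in muscle (-1.51), and Angpt1 was highest in spleen (0.70) and lowest in white adipose (-1.69). In each case the fasting effect has opposite signs in 2 tissues, and the difference between the tissues was not tested, because each tissue has 1 library per treatment.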

How the results depend on the processing

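Each tissue and treatment had 1 pooled library, so variation between mice was not measured and no call within a tissue has a replicate check. The fit across tissues paired the fed and the fasting library of each tissue by its tissue block. A threshold of 1 on the log2 fold change left 1 called member in muscle, 1 in heart and 0 in white adipose, brown adipose, spleen, kidney and lung. The share of all genes called at that threshold was not taken, so nothing is read from these counts. TMM or DESeq2 size factors each raised the liver count from 0 to 1, and a pseudocount of 1 CPM lowered the spleen count from 2 to 1. The higher calls of all genes in liver rose from 1034 to 1461 with TMM and to 1445 with DESeq2 size factors. Across tissues 0 members were called without the tissue block, when 1 gene of 17296 was called at all. DESeq2's Wald test called 2 members (Kank3 and Flt1), when 844 of all 37084 genes were called higher and 988 lower. The main fit called 243 and 198 of 23580 genes. Each fit without 1 tissue called 1 member. With total counts alone, 9 members differed in muscle, 10 in white adipose and 10 in liver from the mean of the other tissues, against 4, 5 and 8, and the calls over all genes moved the same way. Of the genes named as called across tissues, 5 kept their call without both adipose tissues (Adgrf5, Aplnr, Col1a1, Col3a1 and the member Kank3) and none without the tissue block. Without both adipose tissues 105 of all 22999 genes were called higher and 51 lower. Adgrl4 and Tbx3 lost it with total counts alone and Ecscr without a filter on low counts. Of the 10 genes most like the members, 3 stayed under Spearman correlation. With TMM the calls in the VEGF and angiopoietin list went from 6 to 2 in liver and from 5 to 3 in kidney. The lower calls of all genes went from 2231 to 1507 in liver and from 999 to 790 in kidney, while the higher ones rose. No called member value changed sign under another pseudocount or scaling within a tissue.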
